A study of Homo sapiens with 20 samples.

Results

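TNFRSF12A, 5 other receptors of the tumour necrosis factor (TNF) superfamily (TNFRSF1A, TNFRSF10A, TNFRSF10D, TNFRSF11B and TNFRSF21) and 3 proteins that act behind such receptors (CFLAR, CASP8 and BIRC3) were followed in 2 human melanoma cell lines, A375 and 1205Lu. The members were taken by gene symbol and are 9 of the 58870 genes in the RNA-seq table. For chromatin, every consensus peak that overlapped a member gene, from 10 kb before its start to 10 kb after its end, was taken, which gave 30 of 54563 peaks. The study asked which genes depend on FRA1, a FOS-family transcription factor encoded by FOSL1, and where FRA1 sits on the genome. RNA-seq covered 12 samples, with 3 replicates each of A375 and 1205Lu cells that received a non-targeting siRNA (si-NT) or siRNA against FOSL1 (si-FOSL1). Cut&Run, in which an antibody directs a nuclease to a bound protein and the released DNA is sequenced, covered 3 samples with a FRA1 antibody and 1 with control IgG in each line, all without silencing. No treatment other than the siRNAs is named for these samples, and each line is 1 established culture. Nothing in the labels says that replicates came from separate cultures, so p-values measure the spread between these samples, which may be technical.

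TNF superfamily receptors sit on the cell surface as docking sites for trimeric ligands. Some, such as TNFRSF1A (TNF receptor 1), TNFRSF10A (death receptor 4, a receptor for the ligand TRAIL) and TNFRSF21 (death receptor 6), carry a death domain. Through it, TNFRSF1A and TNFRSF10A can assemble complexes that activate caspase 8 (CASP8). TNFRSF12A (Fn14, the receptor for TWEAK, the product of TNFSF12) has no death domain and signals through TRAF adaptors, TNFRSF10D is a TRAIL receptor with a truncated death domain, and TNFRSF11B (osteoprotegerin) is a secreted decoy. CFLAR (c-FLIP) competes with caspase 8 in these complexes, and BIRC3 (cIAP2) is a ubiquitin ligase that holds them in a survival state and is itself a known target of NF-kB.

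FOS and JUN proteins bind as dimers to the sequence TGAGTCA, which reads TGACTCA on the other strand. In A375, the peaks with the highest FRA1 counts near the members lay at TNFRSF12A, in intron 1 of TNFRSF1A and over introns 7 and 8 of CFLAR. Each of these 3 peaks held the sequence 4 times, and the 12 sites are shown because these peaks carry most of the FRA1 signal described here. Each line gives 10 bases before and after the site on the plus strand of GRCh38, with the site in capitals.
TNFRSF12A intron 1, chr16:3020977-3020983: tgcccaggagTGAGTCAcccgccggcg
TNFRSF12A intron 1, chr16:3021122-3021128: agggcgccggTGACTCAcgttattcga
beyond the end of TNFRSF12A, chr16:3022438-3022444: agggagggagTGAGTCAgccagccgcg
beyond the end of TNFRSF12A, chr16:3022473-3022479: ggtgaggctcTGACTCAcacattctca
TNFRSF1A intron 1, chr12:6335688-6335694: ggggagcaacTGACTCAccagatcaca
TNFRSF1A intron 1, chr12:6335794-6335800: ccagtcacccTGAGTCAgccacgggga
TNFRSF1A intron 1, chr12:6336346-6336352: tccgccccagTGACTCAggccagaggg
TNFRSF1A intron 1, chr12:6336420-6336426: tcaagggtcaTGAGTCAgcagaaaggc
CFLAR intron 7, chr2:201149646-201149652: gtctgttgagTGACTCAcctgccaaag
CFLAR intron 8, chr2:201151237-201151243: gttggatgtcTGACTCAaactgaatca
CFLAR intron 8, chr2:201151387-201151393: tctcttaaaaTGAGTCAgaactatctt
CFLAR intron 8, chr2:201151611-201151617: attttcttaaTGAGTCActtcctgttt

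At TNFRSF12A the sites lay 612, 757, 2073 and 2108 bp after the start of the reference transcript, the first 2 in intron 1 of that transcript. A match is a description of the letters and not a measured binding site. Of all 30 peaks near the members, 7 held the FOS/JUN sequence within 100 bp of their centre, where 28.6% of all consensus peaks held it. None of the peaks whose sites are shown was among those 7. The sequence was somewhere in 15 of the 30, but the share of all peaks with it somewhere was not computed. The TNFRSF12A peak was 4126 bp wide, and 87.0% of the 146 consensus peaks 3 to 5.5 kb wide held the sequence somewhere. The TEAD sequence GGAATGT, or ACATTCC on the other strand, was within 100 bp of the centre in 0 of the 30 peaks and in 5.61% of all peaks. Both motifs were searched on both strands and do not overlap each other in the peaks shown. RefSeq promoters of 300 bases (GRCh38.p14) were matched for 5 of the 9 members, CFLAR, CASP8, TNFRSF21, BIRC3 and TNFRSF1A. Of the CASP8 promoters, 2 of 3 held the FOS/JUN sequence, as did none of the other 7 promoters matched, against 4.95% of all 35116 promoters.

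The RNA-seq samples held 20573412 to 32518903 estimated reads on genes. FOSL1, the targeted gene, was the check of the labels. It averaged 426 ± 9.57 (SD, n = 3) CPM (counts per 1000000 counts of the scaled library) in A375 si-NT and 26.9 ± 0.160 in A375 si-FOSL1, and 460 ± 8.87 and 67.0 ± 3.23 in 1205Lu. The silenced samples thus kept 6.31% of the FOSL1 mRNA in A375 and 14.5% in 1205Lu. Of 8 melanocyte lineage markers, SOX10 averaged 45.1 CPM in A375 and 868 CPM in 1205Lu si-NT cells, MITF averaged 53.6 and 3.37 CPM, and 3 of the 8 were over 1 CPM in each line's si-NT samples. The summed level of 8 markers of leukocytes, endothelium and epithelium was 1.21 to 3.52 CPM in every RNA-seq sample. The FRA1 Cut&Run samples held 3354095 to 5316527 counts in peaks in A375 and 583750 to 897407 in 1205Lu, against 383994 and 314569 for IgG. FRA1 replicates 2 and 3 of 1205Lu differed by no more than the sampling noise (chi-square divided by its degrees of freedom was 1.01 over the 10418 peaks with at least 40 counts in the pair, against 1.07 to 1.64 for the other pairs). They were counted as 1 sample, so that n is 2 for FRA1 in 1205Lu, and with peaks of at least 20 counts the same value was 1.06.

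TNFRSF12A (ENSG00000006327.13, chromosome 16, 3018445 to 3022383, plus strand) rose upon FRA1 silencing in both lines. Its mRNA was at 50.2, 43.2 and 45.6 CPM in A375 si-NT and at 52.3, 50.6 and 56.7 CPM in A375 si-FOSL1. The groups did not overlap, although the lowest silenced sample lay only just above the highest control. In 1205Lu, TNFRSF12A was at 98.1, 94.2 and 100.2 CPM with si-NT and at 134.9, 126.4 and 122.6 CPM with si-FOSL1, a wider gap. The log2 fold change was 0.17 (standard error 0.0564) in A375, a 1.13-fold rise, and 0.33 (standard error 0.0359) in 1205Lu, a 1.26-fold rise. By the quasi-likelihood test of edgeR, adjusted by Benjamini-Hochberg over all genes tested, the adjusted p was 0.0122 in A375 and 2.15e-07 in 1205Lu. The A375 call was lost without si-NT replicate 2 (log2 fold change 0.12, adjusted p = 0.101) and without si-FOSL1 replicate 3 (0.13, adjusted p = 0.0846). The response of 1205Lu exceeded that of A375 by 0.17 on the log2 scale (95% interval 0.04 to 0.30), which did not pass the interaction test in edgeR (adjusted p = 0.0610). It did pass under 3 of the 5 other whole-sample settings tried and when 1 of 3 libraries was left out, namely 1205Lu si-FOSL1 replicate 3 (0.21, adjusted p = 0.0348), A375 si-NT replicate 2 (0.23, 0.0153) or A375 si-FOSL1 replicate 3 (0.23, 0.0160). In bulk samples a change in RNA per cell and a change in the mix of cells cannot be told apart.

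TNFRSF1A (ENSG00000067182.7, chromosome 12, 6328757 to 6342114, minus strand), the main receptor for TNF itself, also rose in both lines. It was at 115.5, 108.6 and 115.5 CPM in A375 si-NT against 147.0, 145.9 and 147.4 CPM in A375 si-FOSL1. In 1205Lu it was at 182.4, 178.0 and 176.0 CPM with si-NT and at 216.5, 224.0 and 229.2 CPM with si-FOSL1. Every silenced sample was above every control of its line. The log2 fold changes were 0.35 (standard error 0.0317) in A375 and 0.26 (standard error 0.0273) in 1205Lu, with adjusted p of 1.90e-09 and 1.39e-07 in edgeR. The difference between the lines was -0.08 (95% interval -0.16 to 0.01) and did not pass (adjusted p = 0.218).

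**Figure D1:**
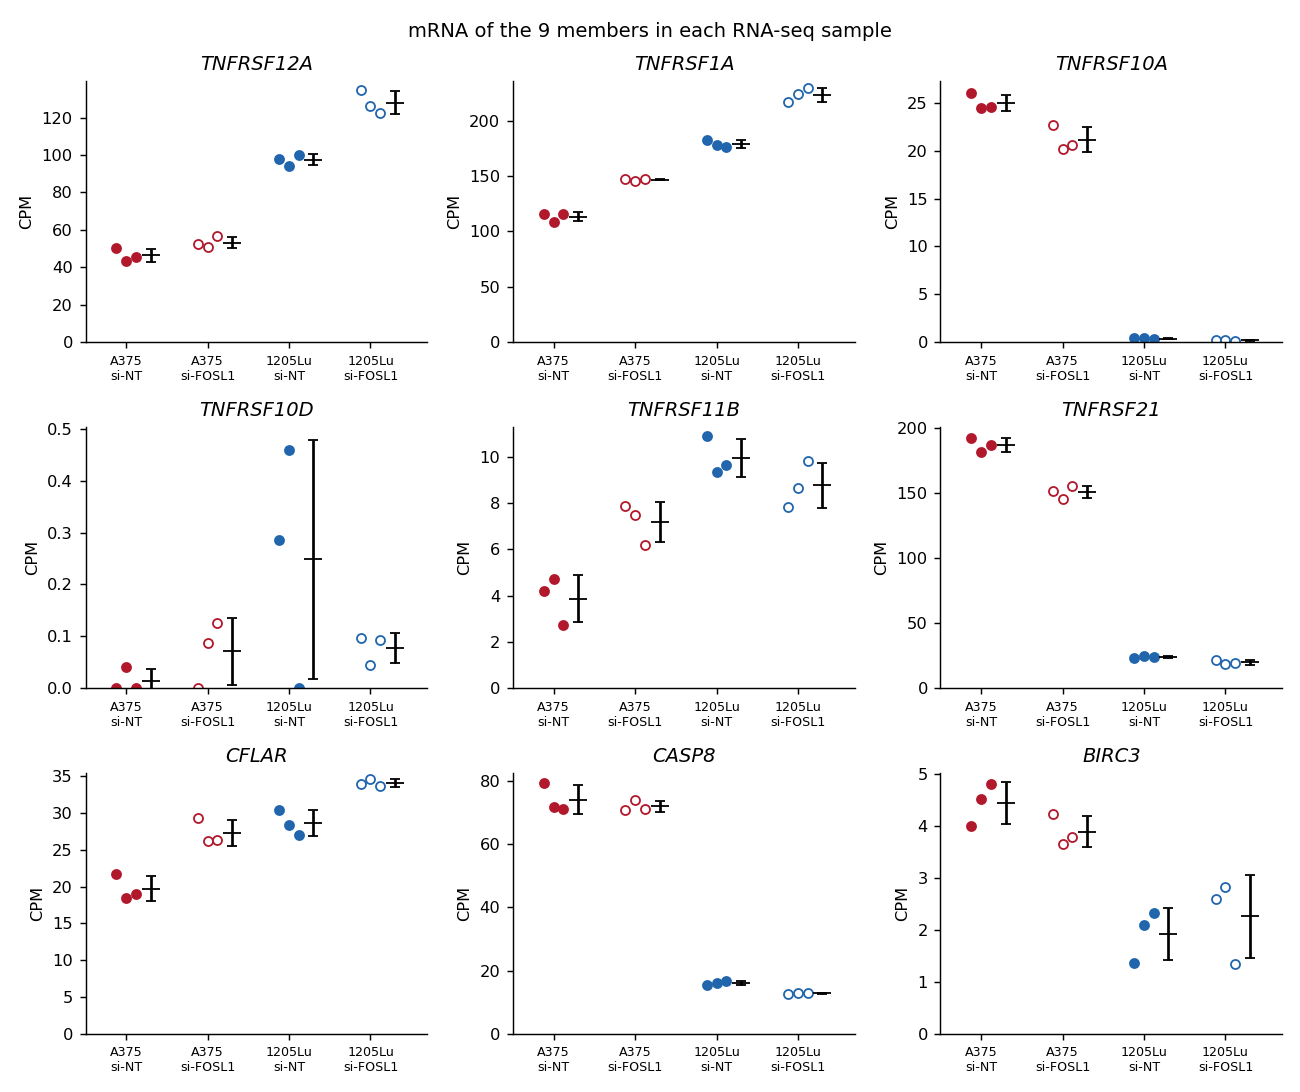
mRNA of each of the 9 members in CPM (vertical axes, each starting at 0) in the 4 groups of RNA-seq samples, si-NT as filled and si-FOSL1 as open circles, A375 in red and 1205Lu in blue, with 1 circle a replicate and the black bar giving the mean ± SD (n = 3). TNFRSF12A and TNFRSF1A stand higher in each silenced group than in its control, TNFRSF10A and TNFRSF21 are far higher in A375, and TNFRSF10D is near 0 in all 12 samples.

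TNFRSF21 fell in both lines and TNFRSF10A in A375, the line where it could be tested. TNFRSF21 (ENSG00000146072.6, chromosome 6, 47231532 to 47309905, minus strand) was at 192.1, 181.5 and 186.6 CPM in A375 si-NT and at 151.3, 145.5 and 155.0 CPM in A375 si-FOSL1. In 1205Lu it was at 22.7, 24.2 and 24.1 CPM with si-NT and at 21.7, 18.5 and 19.0 CPM with si-FOSL1. All silenced samples were below the controls of their line in both. The log2 fold changes were -0.34 (standard error 0.0301, adjusted p = 1.46e-09 in edgeR) in A375 and -0.32 (standard error 0.0735, adjusted p = 0.00130) in 1205Lu, and their difference was 0.02 (95% interval -0.11 to 0.16, adjusted p = 0.838). TNFRSF10A (ENSG00000104689.9, chromosome 8, 23190452 to 23225102, minus strand) was at 26.0, 24.4 and 24.6 CPM in A375 si-NT and at 22.7, 20.2 and 20.6 CPM in A375 si-FOSL1, again without overlap. It fell by 0.26 on the log2 scale (standard error 0.0700, adjusted p = 0.00300 in edgeR). In 1205Lu it had only 2 to 12 estimated reads per sample and did not pass the filter on low counts. TNFRSF10A and its neighbours TNFRSF10B, TNFRSF10C and TNFRSF10D are similar in sequence, and how RSEM divided shared reads among them was not tested.

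Of the decoys TNFRSF11B and TNFRSF10D, only TNFRSF11B could be tested. TNFRSF11B (ENSG00000164761.9, chromosome 8, 118923557 to 118951885, minus strand) was at 4.18, 4.72 and 2.72 CPM in A375 si-NT and rose to 7.87, 7.48 and 6.19 CPM in A375 si-FOSL1. This was the widest relative change among the members tested, at a log2 fold change of 0.87 (standard error 0.171, adjusted p = 1.61e-04 in edgeR), or 1.82-fold, on 64 to 246 estimated reads per sample. In 1205Lu it was at 10.9, 9.34 and 9.65 CPM with si-NT and at 7.84, 8.66 and 9.81 CPM with si-FOSL1. Those groups overlapped, and the log2 fold change of -0.25 (standard error 0.119) had an adjusted p of 0.113. The responses differed between the lines by -1.10 on the log2 scale (95% interval -1.53 to -0.67, adjusted p = 3.12e-04 for the interaction). TNFRSF10D (ENSG00000173530.6, chromosome 8, 23135588 to 23164027, minus strand) had 0 to 11 estimated reads in any sample and was not tested in either line.

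Of the proteins behind the receptors, CFLAR (ENSG00000003402.20, chromosome 2, 201116154 to 201176687, plus strand) rose in both lines. It was at 21.7, 18.5 and 19.0 CPM in A375 si-NT and at 29.3, 26.3 and 26.3 CPM in A375 si-FOSL1. In 1205Lu it was at 30.4, 28.4 and 27.0 CPM with si-NT and at 34.0, 34.6 and 33.7 CPM with si-FOSL1, and neither pair of groups overlapped. The log2 fold changes were 0.45 (standard error 0.0748, adjusted p = 2.15e-05 in edgeR) in A375 and 0.19 (standard error 0.0587, adjusted p = 0.0122) in 1205Lu. Without 1205Lu si-NT replicate 3 the 1205Lu value was 0.15 with an adjusted p of 0.0618. The lines' responses differed by -0.24 (95% interval -0.43 to -0.05), which did not pass (adjusted p = 0.0617). That difference passed with DESeq2 (-0.26, adjusted p = 0.0289), with upper-quartile scaling (-0.29, adjusted p = 0.0235), without A375 si-NT replicate 1 (-0.31, adjusted p = 0.0211) and without 1205Lu si-NT replicate 3 (-0.28, adjusted p = 0.0361).

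CASP8 (ENSG00000064012.21, chromosome 2, 201233443 to 201361836, plus strand), the caspase that CFLAR restrains, fell in 1205Lu. It was at 15.5, 16.1 and 16.6 CPM with si-NT and at 12.5, 13.0 and 12.9 CPM with si-FOSL1, without overlap. The log2 fold change was -0.39 (standard error 0.0830, adjusted p = 7.78e-04 in edgeR). In A375 CASP8 was at 79.3, 71.8 and 71.2 CPM with si-NT and at 70.7, 74.0 and 71.2 CPM with si-FOSL1, groups that overlapped, with a log2 fold change of -0.07 (95% interval -0.15 to 0.02, adjusted p = 0.213). The difference between the lines, -0.31 (95% interval -0.47 to -0.14), passed the interaction test (adjusted p = 0.00594). BIRC3 (ENSG00000023445.14, chromosome 11, 102317484 to 102339403, plus strand) was at 3.99 to 4.80 CPM in A375 si-NT and at 3.65 to 4.22 CPM in A375 si-FOSL1. It was at 1.37 to 2.32 CPM in 1205Lu si-NT and at 1.35 to 2.83 CPM in 1205Lu si-FOSL1. Both pairs of groups overlapped, with log2 fold changes of -0.21 (standard error 0.162, adjusted p = 0.289) and 0.18 (standard error 0.284, adjusted p = 0.654).

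Counted over the members, 8 of the 9 were tested in A375, of which 4 rose and 2 fell, and 7 were tested in 1205Lu, of which 3 rose and 2 fell. Over all genes tested, 25.7% rose and 25.1% fell in A375, and 20.6% rose and 19.9% fell in 1205Lu, so calls of this kind were common among all genes. No member passed a fold of 2 (log2 fold change of 1) in either line, as 5.56% of all tested genes did in A375 and 3.13% in 1205Lu. The median log2 fold change of the tested members was 0.05 in A375 and 0.18 in 1205Lu, beside medians of -0.0026 and -0.0048 over all genes. The interaction test called 2 of 8 members, TNFRSF11B and CASP8, where it called 31.9% of all genes. For TNFRSF10A the difference was -0.73 (95% interval -1.56 to 0.11, adjusted p = 0.240) and for BIRC3 0.41 (95% interval -0.23 to 1.06, adjusted p = 0.382), wide intervals at these low counts. The comparisons within the lines use separate samples, but the interaction uses all 12.

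**Figure D2:**
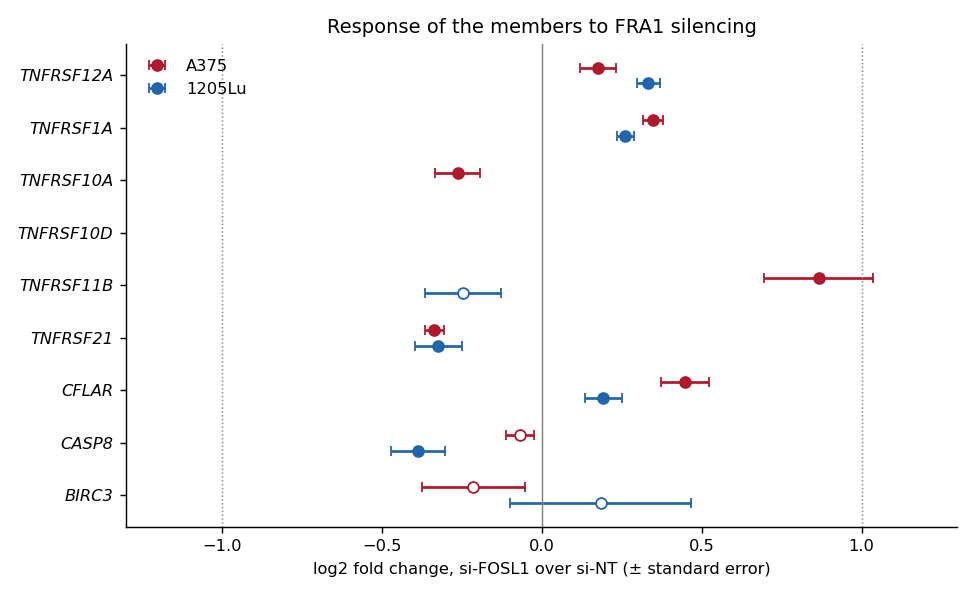
Log2 fold change of each member, si-FOSL1 over si-NT (horizontal axis), with its standard error, in A375 (red) and 1205Lu (blue), filled where the adjusted p was under 0.05 and with dotted lines at a fold of 2. TNFRSF12A, TNFRSF1A and CFLAR lie right of 0 and TNFRSF21 left of 0 in both lines, and TNFRSF11B lies at 0.87 in A375 and -0.25 in 1205Lu. TNFRSF10D was tested in neither line and TNFRSF10A in A375 alone.

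The 7-base sequence GAGTAGC, which the FOSL1 transcript holds, was in the reference transcripts of 3 of the 9 members, CFLAR, CASP8 and TNFRSF21. Of these, TNFRSF21 fell in both lines, CASP8 fell in 1205Lu and CFLAR rose in both. Among protein-coding genes tested with a reference transcript, 17.0% held it in A375, and their median log2 fold change was -0.11 against 0.04 for the rest. In 1205Lu 17.4% held it, with medians of -0.07 and 0.01. The siRNA sequences were not used here, so whether this sequence belongs to them is not known. The sequence was taken with earlier results of these data known, so the medians are a description and not an independent test. A longer transcript is more likely to hold any given 7-base sequence, and the groups were not matched for transcript length. The part of this sequence in the members' changes was not tested.

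Without silencing, the median absolute log2 difference between the lines was 1.33 over the tested members, beside 0.829 over all genes, and upon silencing it was 0.299 in A375 and 0.262 in 1205Lu, beside 0.273 and 0.239 over all genes. Wider differences between the lines than upon silencing were thus the pattern of all genes too. TNFRSF12A averaged 46.3 ± 3.57 CPM (SD, n = 3) in A375 si-NT and 97.5 ± 3.07 CPM in 1205Lu si-NT, a log2 difference of 1.19 (standard error 0.0490, adjusted p = 2.61e-17 in edgeR). TNFRSF1A was also higher in 1205Lu, by 0.77 on the log2 scale, as were CFLAR, by 0.65, and TNFRSF11B, by 1.48. TNFRSF10A averaged 25.0 ± 0.850 CPM in A375 and 0.358 ± 0.0734 CPM in 1205Lu, a log2 difference of -5.99 (standard error 0.161, adjusted p = 2.63e-21). TNFRSF21 averaged 187 ± 5.28 and 23.7 ± 0.838 CPM, a log2 difference of -2.87, and CASP8 averaged 74.1 ± 4.55 and 16.0 ± 0.539 CPM, a log2 difference of -2.10. BIRC3 was lower in 1205Lu by a log2 difference of -1.11. All 8 members tested passed, 4 higher in 1205Lu and 4 higher in A375, where 36.1% of all genes were higher in 1205Lu and 39.8% higher in A375. Among the members with a full death domain, TNFRSF10A and TNFRSF21 were thus lower in 1205Lu and TNFRSF1A was higher.

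Levels of different genes were compared per kb of the reference transcript. In A375 si-NT, TNFRSF1A (52.1 ± 1.82 CPM per kb), TNFRSF21 (51.9 ± 1.47) and TNFRSF12A (47.4 ± 3.65) formed the top, and the first 2 did not differ beyond their spread. CASP8 followed at 27.9 ± 1.71 CPM per kb and TNFRSF10A at 9.30 ± 0.316. TNFRSF11B (1.86 ± 0.497 CPM per kb), CFLAR (1.35 ± 0.119) and BIRC3 (0.645 ± 0.0595) were low, and TNFRSF10D was lowest at 0.00384. This order rests on the length used. With the merged length of all annotated exons, TNFRSF21 led in A375 at 51.9 ± 1.47, ahead of TNFRSF1A at 26.9 ± 0.942 and TNFRSF12A at 25.7 ± 1.98. The reference transcript of CFLAR is 14612 bases long. By the reference transcript, in 1205Lu si-NT TNFRSF12A led at 99.8 ± 3.14 CPM per kb, followed by TNFRSF1A at 82.3 ± 1.51, TNFRSF21 at 6.59 ± 0.233 and CASP8 at 6.04 ± 0.203. After silencing, TNFRSF12A reached 131 ± 6.46 CPM per kb of the reference transcript in 1205Lu, the highest level of any member in any group on that scale.

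Over the 12 RNA-seq samples, the protein-coding genes with the pattern most like that of TNFRSF12A, by Pearson correlation of log2 CPM over 10872 genes compared, were DCAF10, KBTBD2, SLC5A6, KLF9 and TMEM87B. The value of r was 0.995 for each. The samples fall into 4 groups that share lines and treatments, and with the group means taken out r ranged from 0.379 for KLF9 to 0.780 for TMEM87B. KLF9, a Kruppel-like transcription factor, averaged 26.5 and 37.01 CPM in A375 si-NT and si-FOSL1, and 152 and 275 CPM in 1205Lu. KBTBD2 averaged 45.1, 54.4, 98.1 and 124 CPM in the same order, close to the levels of TNFRSF12A itself.

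FRA1 Cut&Run counts were highest, among the members, at TNFRSF12A. The peak chr16:3020270-3024395 held the start of its reference transcript at 3020368, its exons and introns and about the same length again past its end, and also the starts of HCFC1R1 and THOC6. It had 1995, 3113 and 2586 counts in the FRA1 samples of A375 against 79 with IgG, and 292, 482 and 392 counts in those of 1205Lu against 53 with IgG. In raw counts the FRA1 samples were at 24.9 to 38.9 times the IgG count plus 1 in A375 and 5.41 to 8.93 times in 1205Lu. The FRA1 samples held more counts in peaks than IgG, and as shares of each sample's total in peaks they were at 2.85 to 2.95 times IgG in A375 and 2.97 to 3.19 times in 1205Lu, so that the peak was not over 4 times IgG at equal totals in either line. By FRA1 counts summed over replicates it was rank 2 of 54563 peaks in A375 and rank 21 in 1205Lu, and per base it was above 99.8% and 98.1% of peaks. IgG counts were also high there, at rank 6 in A375 and rank 9 in 1205Lu. After scaling, the FRA1 level was 569 ± 13.0 CPM (SD, n = 3) in A375 and 520 ± 89.9 (n = 2) in 1205Lu. The log2 difference, 1205Lu over A375, was -0.08 (standard error 0.223, adjusted p = 0.797 in edgeR), beside a median of -0.24 over all peaks. Scaled by totals in peaks it was -0.22 and passed (adjusted p = 0.0450). Without 1205Lu FRA1 replicate 1 it was 0.33 (adjusted p = 2.06e-05), but that line then held the summed pair as its only sample, and the test assumed that it varies like the A375 samples.

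TNFRSF1A had 5 peaks within 10 kb. The strongest, chr12:6335145-6337264 in intron 1, had 624, 952 and 801 FRA1 counts in A375 against 34 with IgG, and 233, 340 and 307 in 1205Lu against 37. The peak ranked 265 in A375 and 58 in 1205Lu. As shares of each sample's total in peaks, FRA1 was at 2.02 to 2.13 times IgG in A375 and 3.22 to 3.39 times in 1205Lu, below 4 times in both. IgG counts there ranked 264 and 44. Scaled FRA1 counts were higher in 1205Lu by 1.23 on the log2 scale (standard error 0.197, adjusted p = 9.59e-06 in edgeR). The next peak toward the end of the gene, chr12:6332269-6334092, had 94, 165 and 134 counts in A375 against 20 with IgG and 44, 128 and 116 in 1205Lu against 21, and was higher in 1205Lu by 2.16 (adjusted p = 1.91e-08). A peak upstream of the reference start, chr12:6345053-6346035, had 120, 193 and 154 counts in A375 against 16 and only 20, 20 and 22 in 1205Lu against 10. Its scaled difference was -0.19 (adjusted p = 0.472). At equal totals, FRA1 at this upstream peak was at 0.859 to 0.871 times IgG in A375 and 0.701 to 1.08 times in 1205Lu. At chr12:6332269-6334092 it was at 0.538 to 0.604 times in A375 and 1.13 to 2.22 times in 1205Lu.

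CFLAR had its highest FRA1 counts far from the start of its reference transcript. The peak chr2:201149084-201152021 was centred 34388 bp after the reference start and had 860, 1294 and 1061 counts in A375 against 22 with IgG. This peak overlapped an annotated exon and lay within 3 kb of another annotated CFLAR start, so it counts as a promoter peak. In 1205Lu it had 52, 81 and 86 counts against 14 with IgG, so that 1 of the 3 FRA1 samples was below 4 times the IgG count plus 1. It ranked 86 in A375 and 1719 in 1205Lu. Scaled counts were lower in 1205Lu by a log2 difference of -1.22 (standard error 0.221, adjusted p = 4.79e-05 in edgeR), with an adjusted p of 0.0676 (log2 difference -1.09) without A375 FRA1 replicate 1. The peaks at the CFLAR start, chr2:201116301-201116697 and chr2:201116930-201117396, had 3 to 16 counts in any FRA1 sample against 1 to 4 with IgG. Their log2 differences of 1.88 (adjusted p = 0.00258) and 1.91 (adjusted p = 0.0137, and 0.0680 without 1205Lu FRA1 replicate 3, where the difference was 1.72) rest on these few counts. The remaining CFLAR peak, chr2:201130332-201131102, had 12, 31 and 14 counts in A375 against 1 with IgG and 8, 7 and 4 in 1205Lu against 9. Its log2 difference of 1.15 (adjusted p = 0.0400) was lost when 1 of 4 samples was left out, namely A375 FRA1 replicates 1 (1.196, adjusted p = 0.0566) and 3 (0.99, 0.0947) and 1205Lu FRA1 replicates 1 (1.1005, 0.0822) and 2 (1.09, 0.104).

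**Figure D3:**
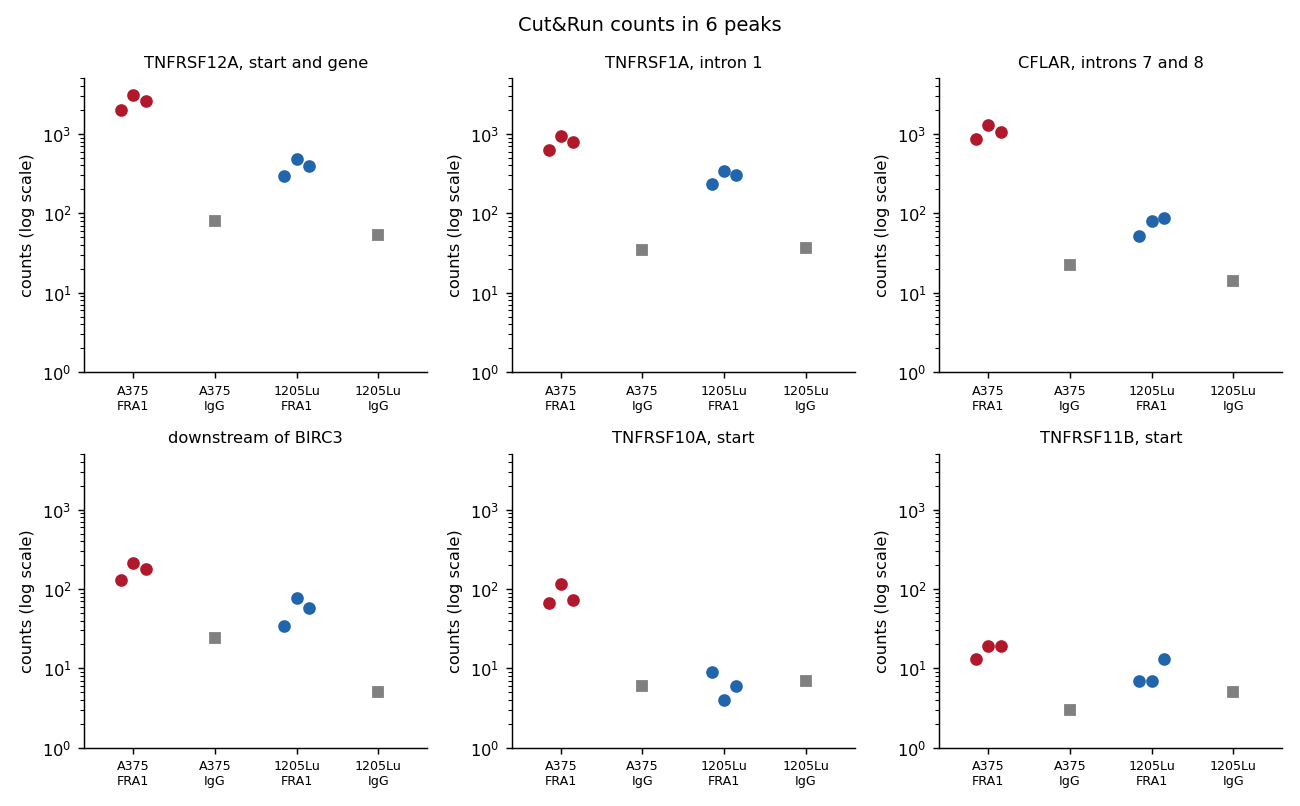
Cut&Run counts (vertical axes, log scale) in 6 peaks near the members, with 1 point a sample, FRA1 samples as circles (A375 red, 1205Lu blue, 3 each) and IgG as grey squares (1 each). The counts are not brought to equal totals. In them the FRA1 points stand above IgG in both lines at every peak shown but the start of TNFRSF10A. There they do so in A375 alone, with 66, 116 and 73 counts against 6.

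The peaks near TNFRSF10A, TNFRSF10D, TNFRSF11B and TNFRSF21 had lower FRA1 counts than the peaks whose sites are shown. The peak at the start of TNFRSF10A, chr8:23224579-23225458, had 66, 116 and 73 FRA1 counts in A375 against 6 with IgG and 9, 4 and 6 in 1205Lu against 7, where FRA1 was at the level of IgG. The log2 difference was -1.01 (adjusted p = 0.0147 in edgeR), and it did not pass with DESeq2 (-0.77, adjusted p = 0.158), without A375 FRA1 replicate 1 (-0.86, 0.0731) or 2 (-0.90, 0.05), or without 1205Lu FRA1 replicate 2 (-0.75, 0.0964). The peak near the start of TNFRSF10D, chr8:23161117-23162231, had 147, 259 and 198 counts in A375 against 15 and 8, 8 and 4 in 1205Lu against 9, a log2 difference of -2.18 (adjusted p = 6.10e-07). TNFRSF10D mRNA had 0 to 3 estimated reads per sample in A375. The peak at the start of TNFRSF11B, chr8:118951555-118952095, had 13, 19 and 19 counts in A375 against 3 and 7, 7 and 13 in 1205Lu against 5. Scaled counts there were higher in 1205Lu by 1.78 (adjusted p = 4.84e-04). The TNFRSF21 gene had 1 peak, in intron 4 and 66959 bp from its start, with 50, 91 and 80 counts in A375 against 13 and 3, 3 and 1 in 1205Lu against 1, and a log2 difference of -2.25 (adjusted p = 1.15e-04). At equal totals, FRA1 at the TNFRSF10D peak was at 1.12 to 1.25 times IgG in A375 and 0.179 to 0.479 times in 1205Lu. At the TNFRSF11B start it was at 0.457 to 0.571 times in A375 and 0.491 to 1.05 times in 1205Lu. At the TNFRSF21 peak it was at 0.440 to 0.555 times in A375 and 0.402 to 1.62 times in 1205Lu.

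Near CASP8, the promoter peak chr2:201257407-201258836 had 89, 158 and 135 counts in A375 against 7 with IgG and 15, 18 and 8 in 1205Lu against 16. In 1205Lu, FRA1 was thus not above IgG there, and the scaled difference was -0.49 (adjusted p = 0.103 in edgeR), or -0.69 (adjusted p = 0.0178) with totals in peaks. At equal totals, FRA1 at this peak was at 1.46 to 1.74 times IgG in A375 and 0.201 to 0.505 times in 1205Lu. At 2 further CASP8 promoter peaks the FRA1 counts were 13 to 35 in A375 and 1 to 13 in 1205Lu. Of these, chr2:201233420-201233987 had a log2 difference of 1.69 (adjusted p = 0.00517), which without 1205Lu FRA1 replicate 1 was 1.11 (adjusted p = 0.125). The other, chr2:201236052-201236515, had one of -0.84 (adjusted p = 0.252). The peak at the start of BIRC3, chr11:102317192-102317914, had 29, 55 and 32 counts in A375 against 7 and 9, 2 and 3 in 1205Lu against 5, and a difference of -0.31 (adjusted p = 0.597). At equal totals, FRA1 there was at 0.412 to 0.567 times IgG in A375 and 0.140 to 0.970 times in 1205Lu. The peak with the highest FRA1 counts near BIRC3, chr11:102345815-102347643, lies beyond the end of that gene and holds the start of the neighbouring gene BIRC2. It had 128, 212 and 179 counts in A375 against 24 and 34, 77 and 57 in 1205Lu against 5, and was higher in 1205Lu by 1.04 (adjusted p = 1.14e-04). As shares of each sample's total in peaks, FRA1 there was at 0.611 to 0.673 times IgG in A375 and 3.66 to 5.40 times in 1205Lu. A further peak, chr11:102323684-102324369, overlapped a BIRC3 exon. It had 77, 134 and 103 counts in A375 against 5 and 3, 2 and 3 in 1205Lu against 3. Its log2 difference was -2.56 (adjusted p = 3.98e-06 in edgeR). At equal totals, FRA1 at this peak was at 1.76 to 1.94 times IgG in A375 and 0.234 to 0.539 times in 1205Lu.

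A peak was called over IgG where all FRA1 samples of the line reached both 10 counts and 4 times the value of IgG, to which 1 count was added. By this rule 17 of the 30 peaks were over IgG in A375, where 57.4% of all peaks were. In 1205Lu 3 of 30 were, against 7.09% of all peaks, namely the peaks at TNFRSF12A, in intron 1 of TNFRSF1A and at the BIRC2 start. All 3 were also over IgG in A375 by this rule, which uses raw counts. At equal totals, FRA1 at the BIRC2 start was at only 0.611 to 0.673 times IgG in A375. IgG is 1 sample a line, so this is a description with no test. When every sample was brought to the same total in peaks, 2 of the 30 remained over IgG in A375 and 0 in 1205Lu. The share of all peaks was 1.61% and 2.76%. The 2 were the CFLAR peak chr2:201149084-201152021 and chr2:201228354-201228794 upstream of CASP8. The latter overlaps the gene CASP10 and had only 11, 24 and 16 FRA1 counts in A375, against 0 with IgG. Between the lines, 17 of the 30 peaks passed, 11 higher in 1205Lu and 6 higher in A375, where 24.3% and 29.0% of all tested peaks did. The members' split was 10 and 4 with DESeq2, 8 and 8 with totals in peaks, and 1 and 18 without scaling. Of the 11 peaks higher in 1205Lu, 2 were over IgG in 1205Lu, and of the 6 higher in A375, 5 were over IgG in A375, and the others had at least 1 FRA1 sample under the limits in the line where they were higher. Over all peaks, 45.6% of the calls between the lines were higher in 1205Lu with TMM scaling and 56.1% with DESeq2's size factors. The share was 39.4% with totals in peaks and 9.67% without scaling. The median log2 difference over all peaks was -0.24 with TMM, -0.03 with DESeq2 and -0.43 with totals in peaks, so differences of this size depend on the scaling.

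**Figure D4:**
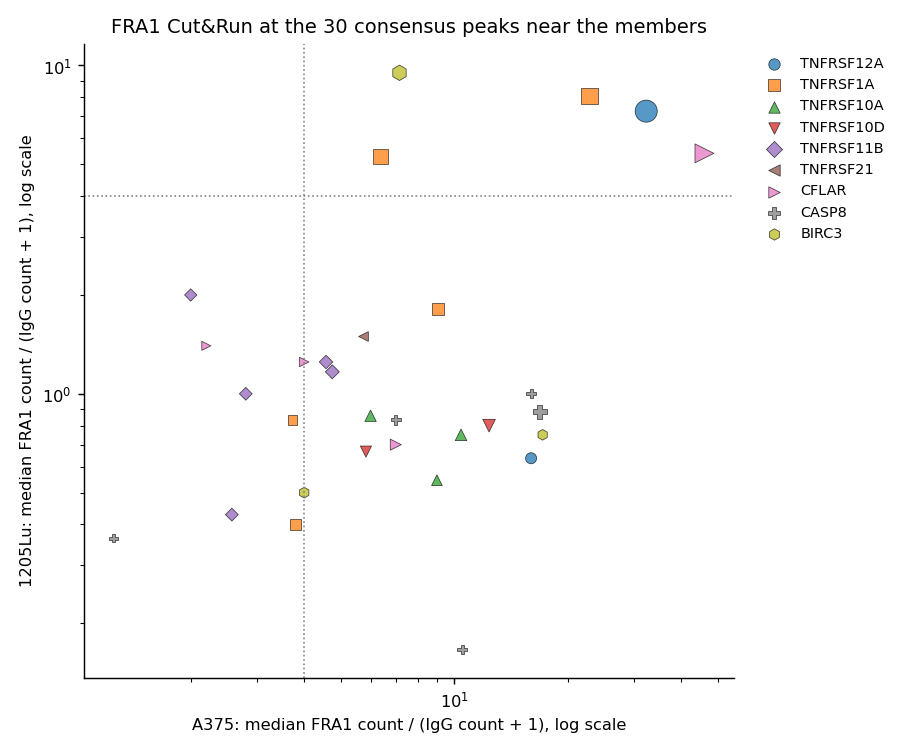
Median FRA1 count divided by the IgG count plus 1 in A375 (horizontal) and 1205Lu (vertical), both on log scales, for the 30 consensus peaks near the members, with marker shape and colour giving the gene, marker area growing with peak width, and dotted lines at 4. In these counts, not brought to equal totals, most peaks lie right of the line in A375 and below it in 1205Lu. By their medians, 5 lie past both lines, of which 3 had every FRA1 sample past it.

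The other genes of the pathway were read from fixed lists. Of 23 other receptors, 16 were tested in A375, with 5 higher and 3 lower in si-FOSL1, and 13 in 1205Lu, with 7 higher and 2 lower. The median log2 fold change was -0.08 in A375 and 0.10 in 1205Lu. Past a fold of 2 were NGFR, the neurotrophin receptor p75, at 2.105 in 1205Lu (adjusted p = 1.50e-10 in edgeR; -0.46 in A375), TNFRSF13C at -2.41 in A375, and TNFRSF14 at 1.11 in A375 and -1.13 in 1205Lu. TNFRSF13C and TNFRSF14 averaged under 2 CPM in every group. TNFRSF10B, the other TRAIL receptor with a death domain, rose from 65.0 to 89.3 CPM in A375 and from 128 to 180 CPM in 1205Lu, log2 fold changes of 0.43 and 0.43 (adjusted p = 3.32e-09 and 1.12e-09). It is named as the nearest relative of TNFRSF10A, after its values were seen. The difference between its 2 responses was 0.01 (adjusted p = 0.924).

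Of 18 ligands, 9 were tested in A375, with 4 higher and 1 lower, and 7 in 1205Lu, with 1 higher. TNFSF9 (4-1BB ligand) rose past a fold of 2 in 1205Lu, at a log2 fold change of 1.08 (adjusted p = 4.92e-04 in edgeR), and rose by 0.99 in A375. TNFSF18 (GITR ligand) went from 44.8 to 11.4 CPM in A375, a log2 fold change of -2.0 (adjusted p = 7.82e-18), and averaged under 0.2 CPM in 1205Lu. TNFSF15 at 2.61 and TNFSF13 at 1.14 in A375 averaged under 2 CPM. TNFSF12, the ligand of TNFRSF12A, averaged 0.596 CPM in A375 si-NT and 5.21 CPM in 1205Lu si-NT and passed the test in neither line, with log2 fold changes of 0.19 (adjusted p = 0.741) and -0.11 (adjusted p = 0.669). TNFSF10, which encodes TRAIL, had 0 to 9 estimated reads per sample and was not tested. TNFSF12 and TNFSF10 are named as ligands of members, and not every member's ligand is covered. TNF, the ligand of TNFRSF1A, was on the list but was tested in neither line.

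Behind the receptors, all 24 adaptors, ligases and kinases were tested, with 7 higher and 8 lower in A375 and 10 higher and 6 lower in 1205Lu. TNFAIP3 (A20), which removes ubiquitin chains from these complexes, was the 1 gene past a fold of 2, from 21.5 to 45.1 CPM in A375 (log2 fold change 1.04, adjusted p = 2.44e-13 in edgeR), and it rose by 0.62 in 1205Lu (adjusted p = 3.41e-04). BIRC2 starts within the peak beyond the end of BIRC3. It averaged 42.4 and 49.3 CPM in A375 si-NT and si-FOSL1 (log2 fold change 0.19, adjusted p = 0.00336) and 78.2 and 85.1 CPM in 1205Lu (0.06, adjusted p = 0.261). Of 10 death effectors, 9 were tested, with 3 higher and 2 lower in A375 and 2 higher in 1205Lu. Of 8 NF-kB subunits and inhibitors, 1 was higher and 4 were lower in A375, with a median of -0.19, while 6 were higher in 1205Lu, with a median of 0.25. The interaction test called 7 of those 8, beside the 31.9% of all genes given above. The medians pool subunits with inhibitors. The 1 higher in A375 was the inhibitor NFKBIA, at 0.75 (adjusted p = 8.17e-10 in edgeR), and it also rose in 1205Lu, at 0.43 (adjusted p = 5.74e-05). The 4 lower in A375 were the subunits NFKB1, NFKB2 and RELA and the inhibitor NFKBIB.

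**Figure D5:**
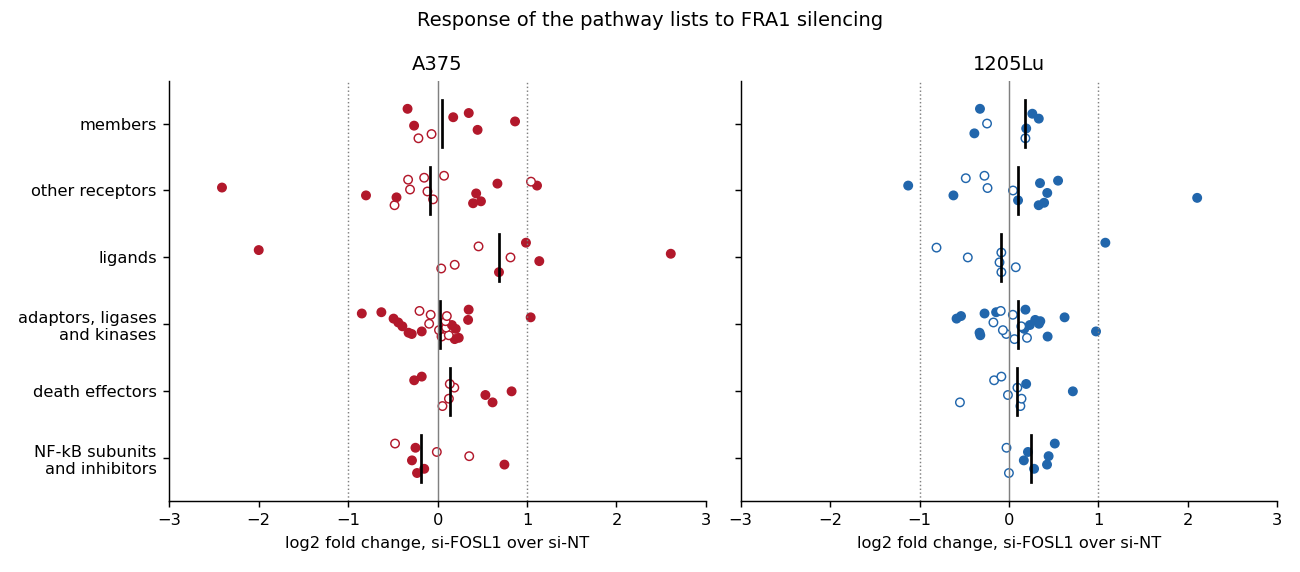
Log2 fold change, si-FOSL1 over si-NT (horizontal axis), of each tested gene of the members and of 5 pathway lists in A375 (left, red) and 1205Lu (right, blue), filled where the adjusted p was under 0.05, with the black bar at each list's median and dotted lines at a fold of 2. The NF-kB list has a median of -0.19 in A375 and 0.25 in 1205Lu, and the ligand list spans -2.0 to 2.61 in A375.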

How the data were processed

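RNA-seq of 12 samples and Cut&Run of 8 samples of 2 cell lines were used. For RNA-seq the authors trimmed reads with cutadapt 1.8.1, aligned them to GRCh38 with STAR 2.7.7a and deposited expected counts per gene from RSEM 1.3.0 with the GENCODE 30 gene model. They are whole numbers in the deposited table. For Cut&Run the authors aligned reads with Bowtie2 2.4.1, called peaks with MACS2 2.1.1.20160309 and deposited counts per consensus peak, which are raw counts. Versions are as in the submitters' processing notes.

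All genes or peaks were fitted in edgeR 4.0.16 (R 4.3.3) with filterByExpr, TMM scaling and the quasi-likelihood test, with Benjamini-Hochberg adjustment over all features tested and a threshold of 0.05. Each line was fitted alone for silencing, and all 12 samples together for the interaction and for the lines without silencing. CPM used TMM-scaled library sizes, and intervals are the estimate ± 1.96 standard errors. Before the peak fit, FRA1 replicates 2 and 3 of 1205Lu were summed. Gene positions came from GENCODE 44 on GRCh38, the build of the peaks. Promoter peaks lay within 3 kb of an annotated start. The steps were tested on simulated data. Alternatives were DESeq2 1.42.0, other scalings, no filter, a replicate block and leaving out each replicate. Where this left 1205Lu FRA1 with 1 sample, its spread was assumed to be that of A375. Levels per kb of merged exons were added after seeing the data.

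The members, lists and tests were chosen with earlier results of these data known. All 9 members are named, then FOSL1, pathway genes past a fold of 2 in either line, and promoter peaks or peaks over IgG in both lines. TNFRSF10B, TNFSF12, TNFSF10, TNF, BIRC2, NFKBIA and the NF-kB genes lower in A375 are named beyond this rule, after their values were seen. So are the markers SOX10 and MITF, and the peaks in TNFRSF21, upstream of CASP8 and over an exon of BIRC3.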

Additional observations from a re-analysis of the deposited data

Results flagged for a closer look

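The responses of 2 members differed between the cell lines by a test of the difference itself. The log2 response of TNFRSF11B to FRA1 silencing, 1205Lu minus A375, was -1.10 (standard error 0.221, adjusted p = 3.12e-04 in edgeR's quasi-likelihood test). TNFRSF11B was higher in 3 of 3 silenced A375 samples than in any A375 control, while the 1205Lu groups overlapped. The same difference for CASP8 was -0.31 (standard error 0.0836, adjusted p = 0.00594), with CASP8 lower in 3 of 3 silenced 1205Lu samples than in any 1205Lu control and overlapping groups in A375. The log2 fold change of FOSL1 itself was -4.01 in A375 and -2.84 in 1205Lu, and the part of this unequal silencing in the differences was not tested. All groups here have 3 samples or fewer, too few for a check of single outlying samples.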

How the results depend on the processing

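The counts of members called upon silencing (6 in A375 and 5 in 1205Lu) were the same with DESeq2, upper-quartile scaling, library totals, no filter on low counts, all 12 samples in one fit and a replicate block, and ranged from 5 to 6 and from 4 to 5 when 1 replicate was left out. Replicate numbers did not pair the samples (correlations of same-numbered deviations of 0.12, 0.06 and 0.01 in A375 and -0.10, -0.07 and -0.05 in 1205Lu). With the replicate block the interaction called 3 members instead of 2, the third being TNFRSF12A (0.18, adjusted p = 0.0406), and 14 of 27 tested peaks differed between the lines (55.7% of all peaks did). With upper-quartile scaling the interaction called 4, with TNFRSF1A and CFLAR added. It called 2 to 3 with 1 replicate left out. The TNFRSF21 difference, 0.02, became -0.024 with upper-quartile scaling and ranged from -0.036 to 0.080 with 1 replicate left out, and that of BIRC3 in 1205Lu ranged from -0.021 to 0.45. Peaks over IgG numbered 9 at 8 times IgG (26.7% of all peaks), 2 at equal totals (1.61%) and 34 of 53 within 50 kb (57.4%) in A375, and 17 to 22 with 1 replicate left out. In 1205Lu they numbered 5 at 2 times IgG (15.6% of all peaks), 0 at 8 times IgG (2.06%), 0 at equal totals (2.76%) and 6 of 53 within 50 kb (7.09%), and 3 to 5 with 1 replicate left out, 5 without replicate 1 (12.9%). Within 50 kb, 28 of 53 peaks differed between the lines (53.3% of all peaks did). Without any scaling, the line difference turned to -0.85 and -0.33 at TNFRSF1A intron 1 and the TNFRSF11B start, to -0.26, -0.21 and -0.99 at 3 CFLAR peaks, to -0.47 at CASP8 and to -1.04 at the BIRC2 start, since A375 samples held more counts in all. With DESeq2 it was 0.11 at TNFRSF12A, 0.00089 at the upstream TNFRSF1A peak and 0.00068 at the BIRC3 start. With 1 replicate left out it ranged from -0.17 to 0.33 at TNFRSF12A and from -1.05 to 0.064 at the BIRC3 start. With all 6 FRA1 samples kept separate, 14 of 23 tested peaks differed, as did 62.6% of all peaks. Shallow 1205Lu Cut&Run samples limit what can be seen at peaks of few counts, and counting error alone is large there.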
